A study of Homo sapiens with 6 samples.

Results

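The baseline transcriptome of F36P was described from the 3 libraries that carried a non-targeting guide (sgNT), out of 6 in the series. F36P is a human acute leukaemia line that grows only with cytokine in the medium and has erythroid traits. The 3 libraries were chosen by their label alone, and all 16315 genes of the table were described in them. No contrast with the other group was made.

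All cells of the series were transduced with a CRISPR guide on a plasmid that gives puromycin resistance, and 1 µg/ml puromycin was applied for 4 days before the messenger RNA was collected. The labels give the sgNT libraries the genotype WT and number them as biological replicates 1, 2 and 3. The other 3 libraries carried a guide against HDAC7, a class IIa histone deacetylase that the series examines in acute erythroid leukaemia. The sgNT cells are therefore not untouched F36P: they went through the same transduction and selection, in the same single line, as the other group. Whether the transduced cells were pooled or cloned, and whether the 3 sgNT samples were grown apart, is not given in the sources used here. The spread between them may thus be technical in part.

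The sgNT libraries held 10039693, 11149179 and 10443774 counts, and 95, 55 and 66 of the 16315 genes had a count of 0. Levels of 1 gene across libraries are given as CPM, counts scaled to a common library total. Levels of different genes are given as TPM, which also divides by exon length. Errors are SD over n = 3 libraries. Counts of list members at a TPM threshold use the mean over these libraries. Shares and medians of a list cover only its members in the table. Members not in the table have no value here, so these figures may not hold for the full list. A count of 3 is worth 0.269 to 0.299 CPM in these libraries, a limit that covers counting error only. HDAC7 (12:47782722-47833132, minus strand) had 453, 459 and 465 CPM in the sgNT libraries, and 193, 237 and 243 CPM in the libraries labelled with the HDAC7 guide. Mitochondrially encoded genes took 4.09 ± 0.684% of counts, with the lowest share in replicate 3. Replicate 1 stood apart from the other two: over 9713 genes with a mean of at least 10 CPM, the SD of log2 ratios was 0.332 against replicate 2 and 0.333 against replicate 3. Between replicates 2 and 3 it was 0.152, where counting error alone gives 0.104. Values are therefore given for each library wherever replicate 1 differed.

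In red cell development, the transcription factors GATA1, TAL1 and KLF1 act with LMO2 and LDB1 to switch on globin, haem synthesis and membrane genes, while GATA2 and MYB belong to earlier progenitors. Erythropoietin signals through its receptor EPOR, the kinase JAK2 and STAT5. The globin genes lie in an alpha cluster on chromosome 16 and a beta cluster on chromosome 11. Those of the beta cluster are used in the order embryonic, fetal and adult. Erythroid, megakaryocytic, mast cell and basophil precursors share GATA factors and a number of markers.

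Upstream sequences of 5 lineage genes at high level here are shown because they hold AGATAA or TGATAA. These words are forms of the letters read by GATA factors. The genes were chosen after the values were seen, from 9 lineage genes looked at. GATA1, HDC, ITGA2B and TFRC, also at high level, held neither word in the same window. Other forms, such as TGATAG, were not marked or counted. ITGA2B holds TGATAG, as does KLF1 on the opposite strand. Each sequence shown is the 250 bases upstream of the RefSeq start on GRCh38.p14, read 5′ to 3′ on the gene's strand. AGATAA or TGATAA on either strand is in capitals (TTATCT or TTATCA where the match is on the opposite strand). RHAG, a subunit of the Rh membrane complex of red cells, lies at chr6:49636840-49637089 (minus strand). ALAS2, the erythroid enzyme that starts haem synthesis, lies at chrX:55030978-55031227 (minus strand). KLF1, an erythroid transcription factor, lies at chr19:12887202-12887451 (minus strand). EPOR, the erythropoietin receptor, lies at chr19:11384315-11384564 (minus strand). CPA3, a carboxypeptidase of mast cell granules, lies at chr3:148865046-148865295 (plus strand).
RHAG: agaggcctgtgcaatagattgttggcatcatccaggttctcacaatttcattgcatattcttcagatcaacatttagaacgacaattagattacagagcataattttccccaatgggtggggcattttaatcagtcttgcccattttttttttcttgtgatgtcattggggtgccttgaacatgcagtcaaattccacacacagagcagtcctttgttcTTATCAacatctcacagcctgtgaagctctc
ALAS2: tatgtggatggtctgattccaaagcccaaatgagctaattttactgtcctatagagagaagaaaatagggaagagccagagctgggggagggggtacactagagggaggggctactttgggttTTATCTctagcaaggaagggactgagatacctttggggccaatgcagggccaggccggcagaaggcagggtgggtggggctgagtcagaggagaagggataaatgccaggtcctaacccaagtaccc
KLF1: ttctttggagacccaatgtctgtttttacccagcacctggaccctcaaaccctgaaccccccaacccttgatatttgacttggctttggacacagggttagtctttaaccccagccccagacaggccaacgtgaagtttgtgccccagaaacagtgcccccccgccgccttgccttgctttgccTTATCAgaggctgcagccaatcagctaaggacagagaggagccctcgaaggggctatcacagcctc
EPOR: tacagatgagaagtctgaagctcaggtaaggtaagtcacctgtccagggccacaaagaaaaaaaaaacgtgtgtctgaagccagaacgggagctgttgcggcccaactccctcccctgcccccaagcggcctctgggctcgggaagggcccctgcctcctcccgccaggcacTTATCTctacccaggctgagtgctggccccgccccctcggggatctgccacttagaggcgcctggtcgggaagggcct
CPA3: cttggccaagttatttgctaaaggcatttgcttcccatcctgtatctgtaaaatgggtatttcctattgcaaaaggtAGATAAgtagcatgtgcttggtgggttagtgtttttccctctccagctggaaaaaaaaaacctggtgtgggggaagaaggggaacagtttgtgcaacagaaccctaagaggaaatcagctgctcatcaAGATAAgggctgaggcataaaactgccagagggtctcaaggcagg

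The matches began 31 bases before the start in RHAG, 127 in ALAS2, 66 in KLF1 and 78 in EPOR. CPA3 held 2, at 173 and 45 bases before the start. A promoter was found for 10078 of the 12409 protein-coding nuclear genes, and 756 of these (7.5%) held AGATAA or TGATAA. In the RefSeq table as a whole, 14.9% of 27305 promoters of the same length did. Of the 79 promoters found for 7 erythroid lists (both globin clusters, transcription factors, haem synthesis, membrane skeleton, surface and late maturation), 17 (21.5%) held a match. Each globin cluster gave only 1 promoter, that of HBM (2.08 TPM) and that of HBD (6.07 TPM). The leading globin genes are thus not in this pool. The share was 4 of 12 (33.3%) in the megakaryocyte list and 3 of 11 (27.3%) in the mast cell list. Lists of other kinds had like shares on few promoters, with 1 of 4 (25%) each for B cell and non-blood genes, 2 of 9 (22.2%) for antigen presentation and 1 of 5 (20%) for monocyte genes. Of iron genes 0 of 13 held a match, and of cell cycle genes 1 of 23 (4.35%). When coding genes were ordered by TPM and divided into 5 groups of equal size, the share was 9.92% in the lowest group, then 8.09%, 6.2%, 7.1% and 6.2% in the highest. A match describes letters in this window and is not a measured binding site.

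The globin genes were dominated by the fetal gamma chain and the alpha chain. Of the 5 alpha-cluster genes 4 had at least 10 TPM and 3 at least 100 TPM, and of the 5 beta-cluster genes 3 had at least 100 TPM. HBG2 (11:5253190-5505605, minus strand), a gamma globin gene, was the gene with the highest mean TPM of the 14978 with a length, at 19200, 30940 and 30780 TPM (mean 26980 ± 6734). The alpha globin genes HBA2 (16:172876-173710, plus strand) and HBA1 (16:176680-177522, plus strand) stood at 4024, 8040 and 7987 TPM and at 2648, 4878 and 4668 TPM. HBG1 (11:5248079-5249859, minus strand), the other gamma gene, had 1870, 1902 and 2105 TPM. In HBG2, HBA2 and HBA1 replicate 1 lay below both other libraries, while the 3 values of HBG1 were close together. In bulk RNA, fewer cells of a type and less RNA per cell cannot be told apart. The 10 haemoglobin genes together took 2.82%, 4.62% and 4.60% of TPM (mean 4.01 ± 1.04%, and 4.61% without replicate 1).

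The gamma genes made up 98.6%, 99.3% and 99.3% of the TPM of the beta cluster. The embryonic gene HBE1 (11:5268345-5505652, minus strand) had 282, 225 and 225 TPM, and contributed 0.893 ± 0.371%. The annotated spans of HBG2 and HBE1 overlap on the same strand and are far longer than their exons (869 and 961 bases). How reads were divided between HBG2 and HBE1 was not tested. The adult genes HBB, the beta chain, and HBD, the delta chain, had 3.58, 11.04 and 11.01 TPM and 6.88, 6.799 and 4.52 TPM. Together these adult genes held 0.0499 ± 0.00361% of the cluster. HBG2 exceeded HBB by 11.80 ± 0.54 on the log2 scale of TPM. The level of HBB was 1.59 to 4.93 CPM, above the value of 3 counts in each library, a limit that covers counting error only. Whether some reads counted for HBB came from the far more abundant gamma genes was not tested.

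In the alpha cluster, HBA1 and HBA2 took 98.1 ± 0.353% of TPM. HBZ, the embryonic zeta chain, had 37.8, 90.1 and 91.3 TPM, or 0.649 ± 0.0831% of the cluster. HBQ1, the theta gene, had 117, 112 and 153 TPM. HBM, the mu gene, had 1, 12 and 8 counts, so that replicate 1 lay under the value of 3 counts. HBZ was lower in replicate 1 than in the other libraries, and HBQ1 was not. The summed TPM of the beta cluster was 3.13, 2.52 and 2.57 times that of the alpha cluster. Division of reads within the pairs is uncertain, since 80.7% of the 50-base words of HBA1 also occur in HBA2. Of those of HBG1, 24.1% occur in HBG2, and of those of HBG2, 47.6% occur in HBG1. HBG1 held 8.87%, 5.79% and 6.40% of gamma TPM, and HBA1 differed from HBA2 by a log2 ratio of TPM of -0.70 ± 0.09. The gamma split also rests on the exon lengths used, 1659 bases for HBG1 and 869 for HBG2. In CPM, HBG1 had a mean of 1102 of the 9050 CPM of both gamma genes.

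**Figure D1:**
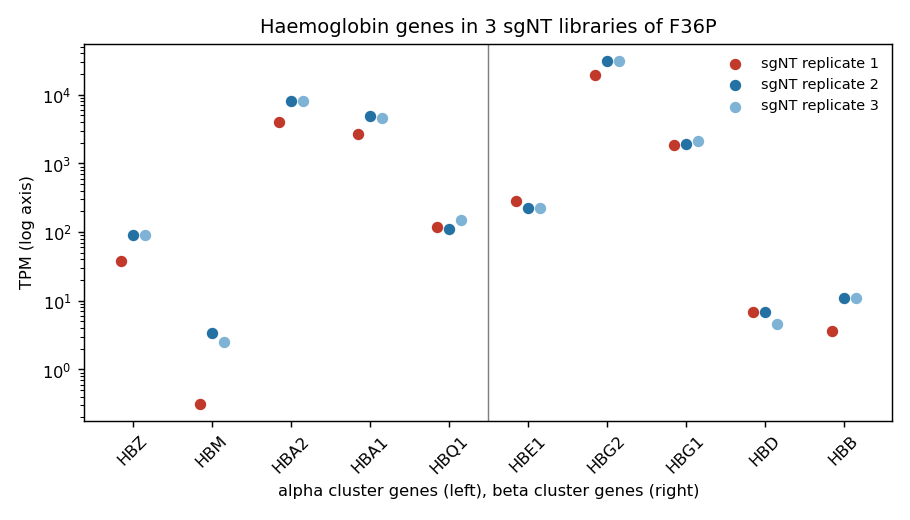
TPM (log axis) of the 5 alpha-cluster genes at left and the 5 beta-cluster genes at right, with 1 point for each sgNT library. HBG2 lies between 19200 and 30940 TPM and HBB between 3.58 and 11.04 TPM, and replicate 1 is the lowest library in HBG2, HBA2, HBA1, HBZ, HBM and HBB.

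Genes known to act on globin choice ranged from LDB1, among the highest of all genes, to LIN28A, near the limit of detection. Of 23 listed, 20 were in the table, 16 (80%) had at least 10 TPM and 7 (35%) at least 100 TPM. Over all genes with a length, 59% had at least 10 TPM and 10.7% at least 100 TPM, and these shares are the background for each list that follows. LDB1, which joins GATA factors at distant enhancers, had 835 ± 117 TPM. KLF1 had 713 ± 111 TPM. MYB, a progenitor factor, had 201 ± 23.7 TPM, the demethylase KDM1A 184 ± 7.797 TPM and the maintenance DNA methyltransferase DNMT1 184 ± 7.61 TPM. BCL11A, a repressor of the gamma genes, had 1.46, 1.93 and 2.47 TPM, a level above 14.6% of protein-coding nuclear genes. ZBTB7A, another gamma repressor, had 35.7, 36.2 and 39.1 TPM, above 69.3% of them. The fetal RNA-binding proteins IGF2BP2 and IGF2BP3 had 101 ± 12.3 and 3.68 ± 0.114 TPM. LIN28A, a fetal RNA-binding protein, had 0.697 and 0.628 CPM in replicates 1 and 2 and a count of 0 in replicate 3, which allows up to 0.287 CPM. BCL11A, ZBTB7A, IGF2BP2, IGF2BP3 and LIN28A were picked with their values known. SOX6, LIN28B and IGF2BP1 were not analysed here.

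Erythroid transcription factors were at high levels as a list. Of 24 listed, 23 were in the table, 22 (95.7%) had at least 10 TPM and 12 (52.2%) at least 100 TPM, with a median of 104 TPM. Over all genes the shares were 59% and 10.7% and the median was 15.5 TPM. GATA1 (X:48786554-48794311, plus strand) had 389.8, 455 and 496 TPM, above 98.8% of protein-coding nuclear genes. KLF1 (19:12884422-12887199, minus strand) had 588, 753 and 798 TPM, above 99.5%. NFE2, a factor of globin and platelet genes, had 363 ± 46.8 TPM, and LMO2, the bridging protein of the TAL1 complex, 318 ± 33.7 TPM. Replicate 1 was the lowest library for GATA1, KLF1, NFE2 and LMO2. TAL1, the basic helix-loop-helix factor of that complex (chosen after its values were seen), had 199, 205 and 203 TPM, which differed little between libraries.

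The balance of GATA1 and GATA2 turned with the library. GATA2 (3:128479427-128493185, minus strand), the GATA factor of progenitors and mast cells, had 546, 344 and 373 TPM. The log2 ratio of GATA1 to GATA2 in TPM was -0.49 in replicate 1, 0.40 in replicate 2 and 0.41 in replicate 3 (mean 0.11 ± 0.52). GATA2 was highest in replicate 1, where GATA1 was lowest. The mean ratio also changed sign with the length used, to -0.29 with the longest annotated transcript and -1.46 with no length scaling, so no order of these genes is drawn. MYB lay below GATA1 in TPM in every library (log2 ratio -1.15 ± 0.10, and -0.57 with the longest transcript). In CPM, with no length scaling, MYB lay above it (327, 413 and 384 against 199.8, 234 and 248 CPM), so their order too rests on the lengths. SPI1, the myeloid factor PU.1, lay below GATA1 by a log2 ratio of TPM of -1.06 ± 0.23 (-0.50 with the longest transcript).

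Genes of haem synthesis were expressed at high level throughout the pathway. All 16 listed genes had at least 10 TPM and 9 (56.2%) at least 100 TPM, beside 59% and 10.7% of all genes, with a median of 110.0 TPM. The highest were TMEM14C, a mitochondrial porphyrin transporter, with 600.5 ± 105 TPM, and UROD, uroporphyrinogen decarboxylase, with 501 ± 34.4 TPM. FECH, which inserts iron into the ring, had 134, 211 and 235 TPM. CPOX, coproporphyrinogen oxidase, had 185 ± 27.5 TPM and GLRX5, an iron-sulfur cluster protein, 179 ± 38.8 TPM. ALAS2 had 90.5, 183 and 192 TPM, and the housekeeping form ALAS1 79.2, 67.6 and 71.4 TPM. ALAS2 was 2.05-fold higher in the mean of replicates 2 and 3 than in replicate 1, and ALAS1 was highest in replicate 1. The log2 ratio of ALAS2 to ALAS1 in TPM was accordingly 0.19 in replicate 1 and 1.43 in each of the other libraries.

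Iron genes were led by storage and uptake. Of 18 listed genes, 17 (94.4%) had at least 10 TPM and 9 (50%) at least 100 TPM, with a median of 91.3 TPM. FTL, the light chain of ferritin, had 7333, 6018 and 6296 TPM, and FTH1, the heavy chain, 866, 1056 and 1138 TPM. FTL was highest and FTH1 lowest in replicate 1, and the log2 ratio of FTH1 to FTL in TPM was -2.69 ± 0.34 (-1.96 with the longest annotated transcript). FTH1 has 12 named copies in the table that together held 582 CPM beside its own 702 CPM, so its own level is uncertain. TFRC, the transferrin receptor, had 831, 962 and 976 TPM, and TFR2, its relative that senses iron, 78.9, 164 and 179 TPM. TFRC exceeded TFR2 by 2.80 ± 0.52 on the log2 scale of TPM, with the widest gap in replicate 1, where TFR2 was low. The iron chaperone PCBP1 had 849 ± 46.7 TPM and the iron exporter SLC40A1 253 ± 39.8 TPM. HMOX1, the inducible haem oxygenase (chosen after its values were seen), had 6.302, 5.005 and 4.298 TPM.

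Membrane skeleton genes spanned a wide range. All 16 were in the table, 15 (93.8%) had at least 10 TPM and 5 (31.2%) at least 100 TPM, with a median of 62.2 TPM. ACTB, the cytoskeletal actin found in all cells, led with 3918 ± 382 TPM. ANK1, the ankyrin that ties spectrin to band 3, had 208, 277 and 297 TPM. STOM, stomatin, had 218 ± 4.56 TPM, the tropomyosin TPM3 188 ± 12.4 TPM, and MPP1, the membrane protein p55, 139 ± 17.9 TPM. SLC4A1, which encodes band 3, the anion exchanger of red cells, had 15.5, 88.2 and 82.4 CPM. It was 5.49-fold higher in the mean of replicates 2 and 3 than in replicate 1. SPTB, the beta chain of spectrin (chosen after its values were seen), had 124, 184 and 215 CPM, again lowest in replicate 1.

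On the red cell surface, 20 of 25 listed genes (80%) had at least 10 TPM and 7 (28%) at least 100 TPM, with a median of 62.4 TPM. RHAG had 616, 650.2 and 676 TPM, and BSG, basigin, 341, 423 and 484 TPM. GYPC, glycophorin C, had 167, 212 and 229 TPM. All 3 genes were lowest in replicate 1. ICAM4, an adhesion molecule of the Landsteiner-Wiener group, had 179.7 ± 38.2 TPM. The Rh genes RHD and RHCE (chosen after their values were seen) had 30.4 ± 6.43 and 20.7 ± 1.85 TPM, and 22.7% of the 50-base words of RHCE occur in RHD. Their division is uncertain for that reason.

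Late maturation genes were present over a wide range of levels. Of 24 listed, 23 were in the table, 22 (95.7%) had at least 10 TPM and 10 (43.5%) at least 100 TPM, with a median of 84.9 TPM. Below RHAG the highest were BLVRB, biliverdin reductase B, with 391.7, 736 and 789.6 TPM, and CA1, carbonic anhydrase 1, with 455, 660.3 and 662 TPM. PRDX2, a peroxidase abundant in red cells, had 219, 368 and 411 TPM. These were lowest in replicate 1, whereas GPX1, glutathione peroxidase 1, had 315, 282 and 311 TPM and was highest there. AHSP, the chaperone of free alpha globin, had 152, 295 and 317 TPM. The lowest member was YPEL4 with 5.09 ± 2.09 TPM. BPGM, which makes the red cell metabolite 2,3-bisphosphoglycerate (chosen, like YPEL4, after its values were seen), had 17.5 ± 0.0537 TPM.

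Among cytokine receptors, the erythropoietin receptor and the shared beta chain stood highest. Of 29 listed, 23 were in the table, 12 (52.2%) had at least 10 TPM and 4 (17.4%) at least 100 TPM, with a median of 12.2 TPM. The share at 10 TPM and the median lay below those of all genes (59% and 15.5 TPM). EPOR (19:11377205-11384342, minus strand) had 199.7, 343 and 372 TPM, lowest in replicate 1. CSF2RB, the beta chain shared by the receptors for GM-CSF, IL-3 and IL-5, had 249.9, 308 and 324 TPM. The log2 ratio of EPOR to CSF2RB in TPM was 0.01 ± 0.29, negative in replicate 1 and positive in the others. With the longest annotated transcript the mean ratio was 0.325. In CPM, with no length scaling, EPOR lay below CSF2RB in every library (210.2, 362.2 and 382.5 against 427.1, 527.7 and 539.6 CPM). Their order thus rests on the lengths. The alpha chain of the GM-CSF receptor, CSF2RA, was 11.5-fold below CSF2RB in TPM (log2 -3.53 ± 0.20, and -2.83 with the longest annotated transcript). IL2RG, the gamma chain of several interleukin receptors, had 119 ± 11.4 TPM, TNFRSF1A, a TNF receptor, 109 ± 9.04 TPM, and TNFRSF1B, the other TNF receptor, 39.6 ± 4.68 TPM. KIT, the stem cell factor receptor, had only 2.79, 4.84 and 3.83 CPM and lay 149-fold below EPOR in TPM (log2 -7.22 ± 0.24).

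Genes of JAK and STAT signalling were all in the table. Of the 23, 21 (91.3%) had at least 10 TPM and 7 (30.4%) at least 100 TPM, with a median of 83.6 TPM. PIM1, a survival kinase induced by STAT5, had 512, 731 and 775 TPM, lowest in replicate 1. STAT5A had 211, 208 and 219 TPM, close in all 3 libraries, and exceeded STAT5B by 1.03 ± 0.11 on the log2 scale of TPM. PIM2 had 164 ± 19.6 TPM. JAK2, the kinase bound to EPOR, and JAK3, a lymphoid kinase (both chosen after their values were seen), had 93.6 ± 15.4 and 0.333 ± 0.233 TPM. MCL1 and BCL2L1, which block apoptosis, had 159 ± 4.505 and 151 ± 12.8 TPM.

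BCL2L1 (BCL-XL) was 27.4-fold higher than BCL2 in TPM (log2 4.77 ± 0.45), above it in every library. The log2 ratio of MCL1 to BCL2L1 was 0.08 ± 0.08 in TPM, with a sign that turned with the longest annotated transcript (-0.11). Of 21 listed apoptosis genes, 18 were in the table, 16 had at least 10 TPM and 3 (16.7%) at least 100 TPM. The pore-forming BAX had 91.8 ± 3.69 TPM and BCL2L11 (BIM), a trigger of apoptosis, 45.9 ± 0.957 TPM. PMAIP1 and BBC3 (NOXA and PUMA, chosen after their values were seen) had 18.2, 37.3 and 36 CPM and 23.3, 54 and 58.6 CPM, lower in replicate 1.

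Defining markers of other blood lineages gave a mixed picture. All 10 erythroid markers had a mean of at least 100 TPM, with ALAS2 at 90.55 TPM in replicate 1. The summed level of these 10 was 24930, 39730 and 39550 TPM. Of 4 megakaryocyte markers in the table, ITGA2B, the platelet integrin chain CD41, had 296, 247 and 262 TPM. ITGB3, its partner chain, had 31.9, 16.6 and 16.7 TPM, and the glycoproteins GP1BA and GP9 had 31, 23.6 and 29.96 TPM and 5.901, 14.4 and 15.5 TPM. PF4 and PPBP were not analysed here. The summed level of the 4 markers in the table was 365, 301 and 325 TPM. In the wider megakaryocyte list 17 of 23 genes were in the table, 12 (70.6%) had at least 10 TPM and 3 (17.6%) at least 100 TPM, beside 59% and 10.7% of all genes. Its median of 13.1 TPM lay below the 15.5 TPM of all genes. These 3 were ITGA2B and the factors NFE2 and GFI1B (128 ± 13.7 TPM), both of which also serve red cells. PEAR1, a platelet receptor, had 67.9 ± 6.502 TPM.

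Among transcripts of mast cells, basophils and eosinophils, HDC, CPA3 and PRG2 were at high level, and the others of the list but GATA2 lay under 100 TPM. HDC (15:50241947-50266026, minus strand), which makes histamine, had 478, 344 and 342 TPM, and CPA3 (3:148865256-148897196, plus strand) had 337, 162 and 173 TPM. Both were highest in replicate 1. PRG2 (11:57386794-57390657, minus strand), the major basic protein of eosinophil granules, had 416, 764 and 766 TPM and was lowest in replicate 1. These levels exceed those of 98.5%, 96.4% and 99.3% of protein-coding nuclear genes. TPSAB1, a mast cell tryptase, had 13.7, 14.2 and 18.2 TPM, and MS4A2, the beta chain of the IgE receptor, 3.86, 1.76 and 2.901 TPM. FCER1G, the gamma chain of that receptor, had 60.2 ± 14.7 TPM. SIGLEC6, a lectin of mast cells (chosen, as the next gene, after its values were seen), had 36.9 ± 6.75 TPM, and TPSB2, the near copy of TPSAB1, 30.9 ± 3.74 TPM. Of the 50-base words of TPSAB1, 61.7% occur in TPSB2, so reads of these genes cannot be divided with certainty. The list had 14 of 23 genes in the table. Of these, 10 (71.4%) had 10 TPM or more and 4 (28.6%) had 100 TPM or more. Their median was 31.5 TPM, beside 104 TPM for the erythroid factors and 15.5 TPM for all genes. The lowest member in the table was KIT with 2.02 ± 0.538 TPM. FCER1A, EPX and CLC were not analysed here. Whether single cells carry erythroid and mast cell transcripts together was not measured.

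Defining granulocyte markers in the table were low. The monocyte genes in the table, 8 of 21 listed, had a median above that of all genes, but most defining monocyte markers were not analysed here. MPO, the neutrophil peroxidase, had 2.09, 0.538 and 0.383 CPM, AZU1, azurocidin, 0.0996, 0.628 and 1.63 CPM and CSF3R, the G-CSF receptor, 12.2, 13.1 and 14.6 CPM, and their summed level was 6.15, 6.01 and 8.24 TPM. ITGAM, the integrin chain CD11b, was the single one of 5 defining monocyte markers in the table, at 31.8, 19.9 and 23.2 TPM. CD14, CSF1R, FCN1 and VCAN were not analysed here. Of 8 granulocyte genes in the table of 22 listed, 3 had at least 10 TPM and the median was 3.03 TPM. SPI1 (213 ± 9.64 TPM), LYZ, lysozyme (161 ± 23.6 TPM), and GFI1, a repressor (21.98 ± 9.93 TPM), were these 3. CEBPA, the factor of granulocyte fate, had 1.41 ± 0.375 TPM. In the monocyte list 8 of 21 genes were in the table, 7 (87.5%) had at least 10 TPM and the median was 43.8 TPM, against 59% and 15.5 TPM over all genes. CD4, a coreceptor found on monocytes as well as T cells, had 174, 171 and 186 TPM, CD33, a myeloid lectin, 74.97, 59.7 and 56.6 TPM and FCGR2A, an antibody receptor, 47.4 ± 6.71 TPM. ANPEP, the peptidase CD13, had 50.98, 33.5 and 36.4 TPM.

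Of the stem cell genes, 5 stood at 100 TPM or more, and most of the defining markers were not analysed here. CD34, the surface marker of progenitors, was the single one of 5 defining markers in the table, with 57.3, 15.2 and 16.2 CPM. Replicate 1 was 3.64-fold above the mean of the other libraries. In the list of 27, 17 were in the table, 9 (52.9%) had at least 10 TPM and 5 (29.4%) at least 100 TPM, beside 59% and 10.7% of all genes. The median was 10.4 TPM, below the 15.5 TPM of all genes. The 5 were GATA2, LMO2, the sialomucin CD164 (216 ± 2.54 TPM), MYB and the homeobox factor HHEX (135 ± 10.6 TPM). MECOM, a stem cell factor (chosen after its values were seen), had 1.63 ± 0.172 TPM. FLT3, PROM1, HLF and SPINK2 were not analysed here.

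Lymphoid and non-blood lists held few genes at high level. Of T and NK genes 7 of 22 were in the table and none had 100 TPM. Their highest were CD7, a surface protein also found on immature myeloid cells, with 95.5, 74.4 and 78.7 TPM and NKG7, a granule protein, with 41.5, 8.396 and 17.5 TPM. PRF1, perforin, and GNLY, granulysin, had 14.6 ± 1.56 and 13.9 ± 8.15 TPM, and CD2, an adhesion receptor, 1.7 ± 0.871 TPM. Of B cell genes 6 of 18 were in the table, and only CD79A, a chain of the B cell receptor, had at least 10 TPM (30.6, 31.7 and 33.6 TPM). Among 10 of 21 non-blood genes in the table, CDH1, E-cadherin, and PECAM1, an endothelial and platelet adhesion protein, had at least 10 TPM. CDH1 had 7.07, 69.4 and 63.7 CPM and PECAM1 74.1, 31.1 and 31.5 CPM, the first lowest and the second highest in replicate 1. The markers ALB, albumin, EPCAM, an epithelial adhesion protein, and COL1A1, a collagen, had 5.45 ± 2.52, 1.79 ± 0.8502 and 0.645 ± 0.189 TPM.

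Surface proteins used in leukaemia typing were led by TFRC. Of 24 listed, 18 were in the table, 13 (72.2%) had at least 10 TPM and 7 (38.9%) at least 100 TPM. The 7 included ITGA2B, the integrin chain ITGB1 (201 ± 25.6 TPM) and the adhesion protein CD99 (143 ± 31.1 TPM). HLA-DRA, a class II antigen-presenting chain (picked with its values known), had 0.199, 2.51 and 2.68 CPM. Of 20 antigen presentation genes 14 were in the table, and 1, B2M, the shared light chain of class I, had 100 TPM or more (219 ± 5.07 TPM). TAPBP, which loads peptides, had 76.2 ± 6.09 TPM, and the class I heavy chains HLA-E and HLA-B had 70.9 ± 5.08 and 34.2 ± 3.48 TPM. Reads of class I heavy chains may be split between these similar and variable genes, so their levels are uncertain.

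HOX genes and their cofactors were at low to middle levels. Of 24 HOX genes and cofactors 11 were in the table, 6 (54.5%) had at least 10 TPM, near the 59% of all genes, and none had 100 TPM. The cofactors PBX2, PBX3 and MEIS2 had 86.6 ± 4.695, 37.9 ± 5.34 and 27.4 ± 0.396 TPM. HOXB9 had 61.7 ± 4.64 TPM and HOXB2 35.97 ± 4.84 TPM. HOXA9 and MEIS1 were not analysed here.

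In the histone deacetylase family HDAC7 had the highest TPM. Of 17 listed genes 16 were in the table, 11 (68.8%) had at least 10 TPM and 2 (12.5%) at least 100 TPM, near the 59% and 10.7% of all genes, with a median of 33.3 TPM. HDAC7 had 134, 135 and 141 TPM and HDAC1, a class I deacetylase, 126, 108 and 118 TPM. HDAC2, its near relative, had 57.99 ± 2.81 TPM, the tubulin deacetylase SIRT2 49.02 ± 8.58 TPM and HDAC10, a polyamine deacetylase, 48.7 ± 0.928 TPM. The ranges of HDAC7 and HDAC1 over the libraries did not overlap, and those of HDAC2, SIRT2 and HDAC10 lay lower. Within class IIa, HDAC7 was 26.4-fold above HDAC5 (log2 ratio of TPM 4.72 ± 0.17) and 25.6-fold above HDAC4 (4.68 ± 0.20). HDAC9 was not analysed here. HDAC1 exceeded HDAC2 by 1.01 ± 0.07 on the log2 scale of TPM. In CPM, with no length scaling, HDAC2 lay above HDAC1 (means of 304 and 158 CPM), so their order rests on the lengths.

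Chromatin and leukaemia genes were broadly expressed. All 29 listed were in the table, 25 (86.2%) had at least 10 TPM and 7 (24.1%) at least 100 TPM, with a median of 34.6 TPM. NPM1, nucleophosmin, had 357 ± 28.2 TPM. It has 13 named copies that together held 806 CPM beside its own 464 CPM, and 1 of them, NPM1P27, exceeded it with 627 CPM, so its level is uncertain. The cohesin subunits RAD21 and SMC3 had 328 ± 13.3 and 133 ± 5.25 TPM. IDH2, a mitochondrial isocitrate dehydrogenase, had 124 ± 23.7 TPM. DNMT1 was 5.29-fold above the de novo methyltransferase DNMT3A in TPM (log2 2.40 ± 0.06). CDKN1A, an inhibitor of cyclin-dependent kinases (picked with its values known), had 0.797, 0.718 and 0.766 CPM.

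Genes of the cell cycle were high. Of 33 listed, 29 were in the table, 27 (93.1%) had at least 10 TPM and 16 (55.2%) at least 100 TPM, with a median of 117 TPM. PCNA, the replication clamp, had 417, 362 and 375 TPM and MCM7, a subunit of the replicative helicase, 347, 322 and 339.6 TPM. The cyclin CCNA2 had 247 ± 20 TPM, the helicase subunit MCM3 229 ± 18.6 TPM, and CDKN2C, an inhibitor of CDK4 and CDK6, 284 ± 18.6 TPM. PCNA, MCM7, CCNA2, MCM3 and CDKN2C were each highest in replicate 1. CDK6 lay below CDK4 by a log2 ratio of TPM of -1.07 ± 0.01.

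Glycolytic genes showed an isoform pattern. All 25 listed genes were in the table, 24 (96%) had at least 10 TPM and 16 (64%) at least 100 TPM, with a median of 155 TPM. GAPDH had 1797 ± 183 TPM, the enolase ENO1 993 ± 113 TPM and the lactate dehydrogenase chain LDHB 944 ± 39.97 TPM. LDHB exceeded LDHA 4.35-fold in TPM (log2 ratio of LDHA to LDHB -2.12 ± 0.17), and HK1 exceeded HK2 6.52-fold (log2 2.71 ± 0.07). PKLR, the pyruvate kinase of red cells and liver, had 132, 267 and 279 TPM, beside the general form PKM with 435, 328 and 358 TPM. PKLR was lowest and PKM highest in replicate 1, so the log2 ratio of PKM to PKLR in TPM ran from 1.72 there to 0.30 and 0.36. With the longest annotated transcript the mean ratio was 2.24 in place of 0.79. The glucose transporter SLC2A1 exceeded SLC2A3 4.42-fold in TPM. The pentose phosphate enzymes PGD and TALDO1 had 379.5 ± 11.3 and 374 ± 6.43 TPM.

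**Figure D2:**
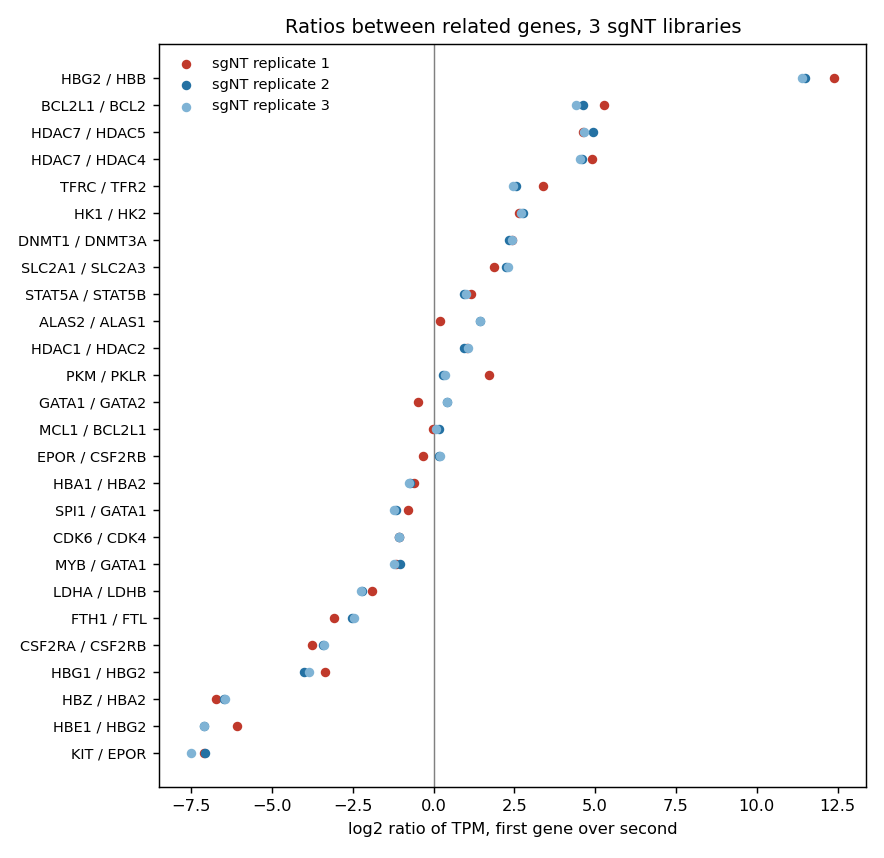
Log2 ratio of TPM for pairs of related genes, first gene over second, with 1 point for each sgNT library and a line at equality. HBG2 over HBB stands at 11.4 to 12.4 and KIT over EPOR at -7.50 to -7.08, and replicate 1 lies away from the other points for GATA1 over GATA2, ALAS2 over ALAS1 and PKM over PKLR.

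The level of expression varied over the whole table as follows. Of 16315 genes, 13889 had a mean of at least 1 CPM, 9713 of at least 10, 2544 of at least 100 and 61 of at least 1000 CPM. The 10 highest genes of each library took 4.99 ± 0.397% of counts and the 100 highest 16.2 ± 0.517%. Among protein-coding nuclear genes HBG2, HBA2, FTL, HBA1 and ACTB led in TPM. APOE, the lipid carrier apolipoprotein E, came next with 2690, 3885 and 4127 TPM, lowest in replicate 1. CALR, a chaperone of the endoplasmic reticulum, had 2659 ± 15.2 TPM and HSP90AB1, a cytosolic chaperone, 2315 ± 112 TPM (both chosen after their values were seen). By CPM the leading genes were COX1, a mitochondrially encoded oxidase subunit (9723, 8362 and 6826 CPM), and HBG2 (5702, 9218 and 8921 CPM). The mitochondrial ribosomal RNA RNR2 (5972, 6362 and 5427 CPM) and the mitochondrially encoded ND4 (6245, 5826 and 4038 CPM) followed. COX2, COX3 and ND1, also encoded there, had 3308, 3714 and 3238 CPM on average. In all 5 mitochondrial messenger RNAs replicate 3 was the lowest library.

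Processed pseudogenes, which are copies of spliced messenger RNAs in the genome, took up much of the upper range. Of the 20 genes with the highest TPM outside the mitochondrial genome, 14 were annotated as pseudogenes and 6 as protein-coding. The 1472 pseudogenes in the table held 4.78 ± 0.0285% of counts and 21.6 ± 0.386% of TPM. EEF1A1P5 had 4041, 4438 and 4478 CPM, against 1778, 1853 and 1878 CPM for its parent EEF1A1, a translation elongation factor. RPL13AP5, a copy of the ribosomal protein gene RPL13A, had 1828 CPM against 215 CPM for the parent, 8.52-fold more. RPL7P9 had 17.6 times the CPM of its parent RPL7.

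Such copies share sequence with their parents. Of the 50-base words of EEF1A1P5, 85.1% occur in EEF1A1. Across the table, 1158 pseudogenes carried the name of a parent that is also in it. Among the 85 of them with at least 100 CPM, 42 exceeded the parent and 42 had a ribosomal protein gene as parent. The median share of 50-base words found in the parent was 57.1% for those at 100 CPM or more (73 with a value) and 7.33% for those under 10 CPM (683 with a value). How reads that fit several places were counted is not given in the sources used here, and whether these copies are transcribed was not tested. Of 83 ribosomal protein genes 62 had a named copy, and 24 were exceeded by a single copy. Their median was 297 CPM alone and 484 CPM with the copies added, and 19 against 7 lay under 100 CPM. The level of such genes cannot be read from their own line alone: RPL13A held 10.2% of the counts of its family, RPL7 3.58% and RPS3A 12.3%.

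**Figure D3:**
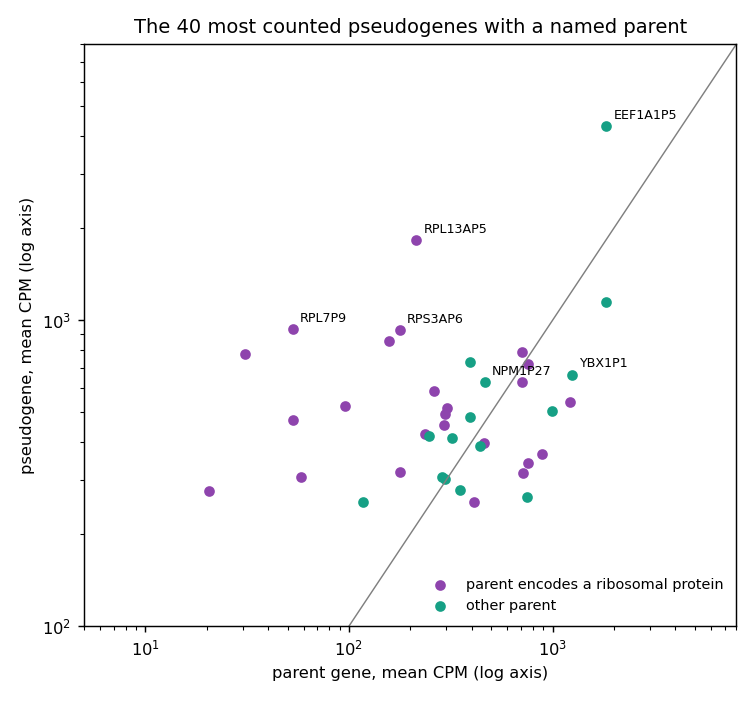
Mean CPM of the 40 most counted pseudogenes that carry the name of a parent in the table (vertical, log axis) against that of the parent gene (horizontal, log axis), coloured by whether the parent encodes a ribosomal protein, with a line at equality. Points above the line exceed their parent, and EEF1A1P5 (4319 against 1837 CPM) and RPL13AP5 (1828 against 215 CPM) are the highest of them.

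The libraries differed from one another mainly through replicate 1. Of 13889 genes with a mean of at least 1 CPM, 1236 (8.9%) were at least 2-fold apart between the highest and the lowest library. Among the 9713 with at least 10 CPM there were 169, and replicate 1 was the library farthest from the others in 163 of them, 122 times as the lower one. Between replicates 2 and 3, 2 of the 9713 genes were at least 2-fold apart, against 127 and 147 for the pairs with replicate 1. The biological coefficient of variation estimated by edgeR was 13.1% over the 3 libraries and 4.53% over replicates 2 and 3.

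Among genes with at least 10 CPM the widest ratios were found for 10 genes. DDIT4, an inhibitor of mTORC1 signalling, had 105, 801 and 818 CPM. CHAC1, which degrades glutathione, had 8.07, 66.2 and 64.4 CPM, and INHBE, a subunit of activin E, 2.19, 29.96 and 31.6 CPM. ACSBG1, an acyl-CoA synthetase, had 4.48, 45.6 and 41.5 CPM, the protease PRSS8 3.19, 28.9 and 29.4 CPM and the growth factor FGF17 4.28, 31.2 and 36.96 CPM. A4GALT, the enzyme of the P1PK blood group, had 12.9, 84.1 and 94.4 CPM. With CDH1 and SLC4A1, given above, these 9 genes were lowest in replicate 1. The pseudogene RPS25P1 was the tenth, and it was low in replicate 2 alone (36.9, 4.22 and 40.98 CPM).

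By gene list, replicate 1 was the lowest library for most erythroid genes, and for most genes of some other lists. Over all 13889 genes it was the lowest library in 38.5% and the highest in 41.9%, and the median log2 ratio of its CPM to the mean of the other libraries was 0.01. It was the lowest in 15 of 16 haem synthesis genes (median log2 ratio -0.51), in 20 of 23 late maturation genes (-0.35) and in 13 of 16 membrane skeleton genes (-0.41). The same held for 20 of 25 surface genes (-0.32) and 17 of 23 erythroid factors (-0.25). Of these lists, the share at least 2-fold apart was 12.5% for haem synthesis, 13% for late maturation and 25% for the skeleton, but 4% for surface genes and 0 of 23 for the factors, beside 8.9% of all genes. Iron genes were nearer to the background, with replicate 1 lowest in 11 of 18 (-0.10). Lists that are not erythroid stood the same way: it was the lowest in 6 of 8 non-blood genes (-0.755, with 4 at least 2-fold apart) and in 20 of 28 chromatin and leukaemia genes (-0.11, with 0 at least 2-fold apart).

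Other lists stood the opposite way. Replicate 1 was the highest library in 23 of 28 cell cycle genes (median log2 ratio 0.14) and in 15 of 25 glycolytic genes (0.14), of which 0 and 1 were at least 2-fold apart. It was also the highest in 10 of 15 megakaryocyte genes (0.23) and 9 of 14 mast cell, basophil and eosinophil genes (0.33), which held 5 (33.3%) and 3 (21.4%) genes at least 2-fold apart. In the stem cell list it was highest in 8 of 15 and lowest in 5. The lists overlap in some members, and genes of a list are not independent of one another. With 1 library of this kind among the sgNT samples, the difference of replicate 1 has no replicate. Its depth was the lowest of the 3 libraries and its mitochondrial share (4.61%) the highest, and their part in the result was not tested.

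**Figure D4:**
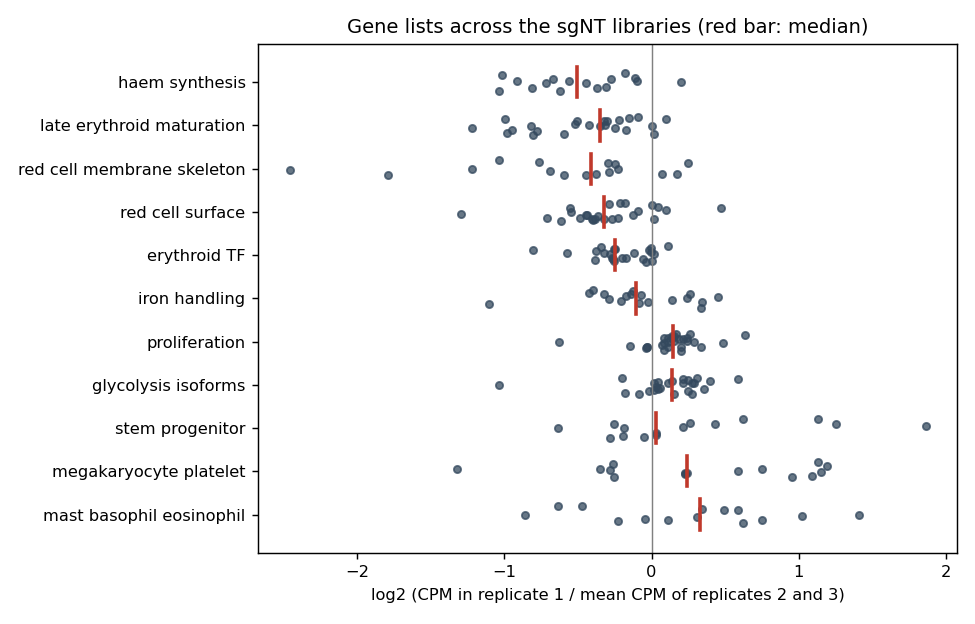
Log2 ratio of CPM in replicate 1 to the mean CPM of replicates 2 and 3 for the genes of 11 of the 27 lists with a mean of at least 1 CPM, with 1 point for each gene and a red bar at the median. Medians of the lists shown run from -0.51 for haem synthesis to 0.33 for mast cell, basophil and eosinophil genes, beside 0.01 over all genes, and lists not shown reach -0.91 (4 alpha-cluster genes), -0.755 (8 non-blood genes) and 0.33 (5 T and NK genes).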

How the data were processed

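Per the labels' protocols, poly-T beads were used to select messenger RNA from total RNA, and complementary DNA was primed with random hexamers. Counts per gene were deposited by the authors in 1 table: its name says CPM, but 100% of the values are whole and the totals differ, so they were treated as raw counts. The submitters' processing notes name hg38 and edgeR 3.32.1 but not what each was used for. For the aligner, counting tool, annotation and strand setting, the entry is: not given in the sources used here. Columns labelled NC hold the sgNT libraries, since the other 3 carry HDAC7 in their name. The table has 0 further columns of values and 0 lines without a gene name.

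CPM used library totals. TPM used exon union lengths from GENCODE 29 (GRCh38): 14174 genes matched by symbol, 770 by current symbol and 34 by mitochondrial names, and 1337 did not (0.977% to 1.01% of counts). The 200 genes under 200 bases held 3.73% to 3.88% of TPM, where lengths weigh most. Gene positions come from the same annotation. Near copies were compared by shared words of 50 bases.

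There is 1 group, so no test between groups was made; replicate numbers serve only as names. Dispersion came from edgeR 4.0.16 (intercept alone, R 4.3.3), and scaling was varied with TMM and with size factors from DESeq2 1.42.0. The scripts (Python 3.11.15, pandas 2.3.3) were tested on simulated data. Named genes are the 20 highest by TPM and the 10 highest by CPM, the 5 highest of each of 27 gene lists, defining markers, 10 genes with the widest ratio between libraries and a set of gene pairs. Not every gene that meets the rule is described. Any other gene is said to have been chosen after its values were seen. The members and lists were chosen with earlier results of these data known.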

Additional observations from a re-analysis of the deposited data

How the results depend on the processing

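Of 36 alternatives, 28 left the value within the spread between libraries or within 1.5 times the main count, and 8 did not. For shares and ratios, leaving out a single library cannot move the mean by as much as that spread. Those alternatives could therefore not count as moved, and they say nothing on how stable the value is. The ratio of GATA1 to GATA2 changed sign in alternatives that were counted as within the spread. The number of genes at least 2-fold apart (1236) was 169 with a filter at a mean of 10 CPM, 2917 with no filter and 763 with a pseudocount of 0.5 CPM. Without single libraries it ran from 341 (without replicate 1) to 815 (without replicate 2), partly because fewer libraries give a smaller range. The haemoglobin share of TPM (4.01%) was 1.22% as a share of counts, since short genes weigh less there. It was 4.76% over nuclear genes of at least 200 bases, an alternative added after seeing the data. The log2 ratio of GATA1 to GATA2 (0.11) was -1.46 with no length scaling, -0.29 with the longest transcript, and -0.04 to 0.41 without single libraries. The gamma share of the beta cluster stayed between 98.95% and 99.27%, genes at or above 100 CPM between 2540 and 2657, and genes at or above 1 TPM between 12864 and 13475. No paired analysis was possible because 1 group was described and no test between groups was made.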

Other observations

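Among the 30 protein-coding genes with the highest TPM, chosen after their values were seen, stood groups that the report does not describe. Cytoskeletal genes included ACTG1, the second cytoplasmic actin, with 2984, 1918 and 1951 TPM, highest in replicate 1. The tubulin genes TUBA1B and TUBB had means of 1977 and 1367 TPM, and PFN1, the actin-binding profilin, 1346 TPM. Ribosomal protein genes held 6 places, the lowest of them RPL11 with 1066 TPM, and each varied by less than 3% of its mean CPM between libraries. TRIM28, a corepressor of zinc finger proteins, had 1306, 1094 and 1117 TPM, and HMGB2, a chromatin protein of dividing cells, 969, 1151 and 1079 TPM. H2BC12, a histone H2B gene, had 1310, 1899 and 1850 TPM, lowest in replicate 1.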
